A study of Mus musculus with 8 samples.

Results

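The 38 genes described here encode the machinery that copies DNA: origin licensing factors, the MCM helicase and its activators, polymerases, the sliding clamp and its loader, strand-joining enzymes, suppliers of deoxynucleotides and the S-phase checkpoint kinase Chek1. They were taken by name from a list made for their function. The rule uses no measured value, although the list was drawn up with earlier results of these data known. All 38 listed genes were found among the 18193 genes measured, and the brightest probe set of each gene, by its average over the 8 arrays, stood for it. Levels were read on Affymetrix mouse arrays as deposited log2 values, so a difference of 1 is a factor of 2 in signal. No member lay at the lower limit of the values on any array, and the members' means over the 8 arrays started at 6.44, for Gins3, and reached the highest value for Pcna.

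The cells were non-transformed CD45.1+ blood stem and progenitor cells sorted from mouse marrow, with 2 arrays in each of 4 groups. These were HSC of leukemic mice, HSC of normal mice, KSL of leukemic mice and KSL of normal mice. KSL cells are lineage-negative, Kit+ and Sca-1+, and HSC are their CD150+ CD48- fraction, which the KSL gate also holds. Leukemic mice were CD45.1+ hosts given CD45.2+ marrow carrying BCR-ABL and SCL-tTA together with as many CD45.1+ marrow cells. Normal mice were made in the same way without the BCR-ABL transgene. The transgene encodes the tyrosine kinase that causes chronic myeloid leukaemia. Its driver, SCL-tTA, is active in early blood cells when tetracycline is absent, and the Tet water was removed 4 weeks before the sort. The cells measured therefore carried no BCR-ABL themselves, and those of leukemic mice had shared the marrow with cells that did. The labels do not give ages, nor say that the 2 arrays of a group came from separate animals, so p-values measure the spread between these samples, which in the leukemic groups may be technical.

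DNA replication starts when the origin recognition complex, Cdc6 and Cdt1 load the ring of Mcm2 to Mcm7 onto origins in G1. In S phase Cdc45 and the GINS complex turn that ring into an active helicase, polymerase alpha with primase lays down primers, and polymerases delta and epsilon extend them on the PCNA clamp. Many of these genes are transcribed under control of E2F factors at the G1 to S transition, and most long-term HSC in adult marrow are known to be quiescent while other KSL cells divide more often.

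Exact forms of the E2F recognition sequence were looked for in the members' promoters, because these genes are textbook E2F targets. Windows of 250 bases before to 50 bases after the annotated start came from RefSeq, assembly GRCm38.p6. Of the 38 members 32 had a window. Mcm4, Gins1, Gins2, Prim2, Pole and Rfc2 had none. The letters searched on both strands were TTTGGCGC, TTTCCCGC, TTTGCCGC and TTTCGCGC, of which matches on opposite strands can overlap. A match was found for 13 of the 32 members (40.6%), namely Cdc6, Cdt1, Gins3, Lig1, Mcm3, Mcm5, Mcm6, Mcm7, Orc1, Pola1, Pold1, Pole2 and Rfc3. Among all 27025 genes with a window the share was 2.60%, and among the 14452 measured genes with a window it was 3.81%. The member windows had a median GC content of 57.3%, against 52.7% over all windows, and the shares were not matched for it. The shorter CCAAT letters occurred in 59.4% of member genes and in 41.1% of all genes. The windows below are shown for the member with the most matches (Mcm6), for Mcm5, Cdt1 and Pole2, which had matches and lower levels in HSC, and for Rrm2, which had the largest difference between HSC and KSL in leukemic mice and no match. Capitals mark the E2F letters on either strand, and overlapping matches run together.
Mcm6, chr1:128359656-128359955, minus strand: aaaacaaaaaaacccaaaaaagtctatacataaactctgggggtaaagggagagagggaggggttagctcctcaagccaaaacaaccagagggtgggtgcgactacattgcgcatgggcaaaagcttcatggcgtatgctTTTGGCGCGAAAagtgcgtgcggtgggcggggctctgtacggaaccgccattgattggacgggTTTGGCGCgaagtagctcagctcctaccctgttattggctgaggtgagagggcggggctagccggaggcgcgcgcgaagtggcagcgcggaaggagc
Mcm5, chr8:75109259-75109558, plus strand: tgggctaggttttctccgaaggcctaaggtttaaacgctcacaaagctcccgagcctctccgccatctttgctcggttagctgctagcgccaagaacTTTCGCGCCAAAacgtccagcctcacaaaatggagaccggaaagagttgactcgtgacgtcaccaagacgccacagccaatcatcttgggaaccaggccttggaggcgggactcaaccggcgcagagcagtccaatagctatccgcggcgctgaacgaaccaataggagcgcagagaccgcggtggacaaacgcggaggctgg
Cdt1, chr8:122567765-122568064, plus strand: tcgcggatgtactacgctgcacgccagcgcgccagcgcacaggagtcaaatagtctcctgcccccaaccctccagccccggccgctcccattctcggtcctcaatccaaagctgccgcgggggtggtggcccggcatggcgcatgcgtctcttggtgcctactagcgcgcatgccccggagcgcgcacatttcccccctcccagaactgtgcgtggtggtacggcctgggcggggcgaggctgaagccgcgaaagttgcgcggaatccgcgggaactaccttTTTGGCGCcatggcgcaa
Pole2, chr12:69228141-69228440, minus strand: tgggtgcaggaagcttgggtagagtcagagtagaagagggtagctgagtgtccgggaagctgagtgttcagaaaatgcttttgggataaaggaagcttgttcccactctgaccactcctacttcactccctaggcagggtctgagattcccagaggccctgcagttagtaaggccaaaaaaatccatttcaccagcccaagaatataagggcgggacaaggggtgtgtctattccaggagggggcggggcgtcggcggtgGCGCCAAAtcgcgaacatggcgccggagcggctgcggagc
Rrm2, chr12:24708004-24708303, plus strand: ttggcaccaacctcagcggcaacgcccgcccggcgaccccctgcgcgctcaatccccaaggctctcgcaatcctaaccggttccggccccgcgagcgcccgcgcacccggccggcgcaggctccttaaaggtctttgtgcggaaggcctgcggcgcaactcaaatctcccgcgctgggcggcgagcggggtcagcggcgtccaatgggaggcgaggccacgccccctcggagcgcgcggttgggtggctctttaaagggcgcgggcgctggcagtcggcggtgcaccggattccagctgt
Among the members that passed the test between HSC and KSL in leukemic mice, Chek1, Rrm2 and Tk1 had a window. Of these 3, 0 held the exact letters searched. The Chek1 window ends in gcgggaa, so a match to TTTCCCGC on the other strand may be cut there. Other forms of the E2F sequence, and matches cut by the edge of a window, were not counted. A match is a description of the letters in the window and not a measured binding site.

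Median log2 levels of the arrays lay between 5.74 and 5.86. Replicate 1 of both normal groups had a male pattern, with low Xist and high Eif2s3y, and the other 6 arrays had high Xist. The 2 arrays of each normal group thus differed in sex pattern and so came at least in part from different animals. The median standard deviation between the 2 replicates over the 38 members was 0.19 for leukemic HSC, 0.17 for normal HSC, 0.06 for leukemic KSL and 0.14 for normal KSL. The HSC labels were borne out by 12 long-term HSC markers, which were all higher on both HSC arrays than on both KSL arrays in either kind of mice. Markers of granulocyte-monocyte progenitors, 12 genes, had mean deviations of -0.91 and -0.87 in leukemic HSC, -2.56 and -2.70 in normal HSC, 1.93 and 1.93 in leukemic KSL and 1.52 and 1.66 in normal KSL. A deviation is the log2 level on an array minus that gene's mean over the 8 arrays. None of these 12 markers lay at the lower limit on both arrays of any group. The 5 mast cell and basophil markers had deviations of -1.77 and -0.52 in leukemic HSC, -2.09 and -2.22 in normal HSC, 2.30 and 2.39 in leukemic KSL and 0.79 and 1.12 in normal KSL. The 6 megakaryocyte markers ran the other way, with 1.48 and 1.36, 0.25 and 1.43, -1.71 and -1.42, and -1.12 and -0.26 in the same order of groups. The 11 markers of mature neutrophils and monocytes had 1.00 and 0.52 in leukemic HSC and 0.09 and -2.20 in normal HSC, where replicate 2 stood apart, and between -0.63 and 0.73 on the KSL arrays. The part of these cell types in the results was not tested.

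Replication genes were mostly lower in HSC than in KSL, in leukemic and in normal mice. The mean deviation of the 38 members was -0.23 and -0.26 on the arrays of leukemic HSC and -0.17 and -0.20 on those of normal HSC. It was 0.20 and 0.22 for leukemic KSL and 0.26 and 0.17 for normal KSL, while over all genes it stayed between -0.04 and 0.04. The fitted difference was below 0 in both kinds of mice for 27 of 38 members and above 0 in both for 1, Rfc3. For 17 of 38 members both HSC arrays lay below both KSL arrays in leukemic and again in normal mice, against 10.1% of all genes. None lay above in both, against 13% of all genes. Since sorted cells were measured in bulk, fewer cells with a transcript and less of it per cell cannot be told apart.

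**Figure D1:**
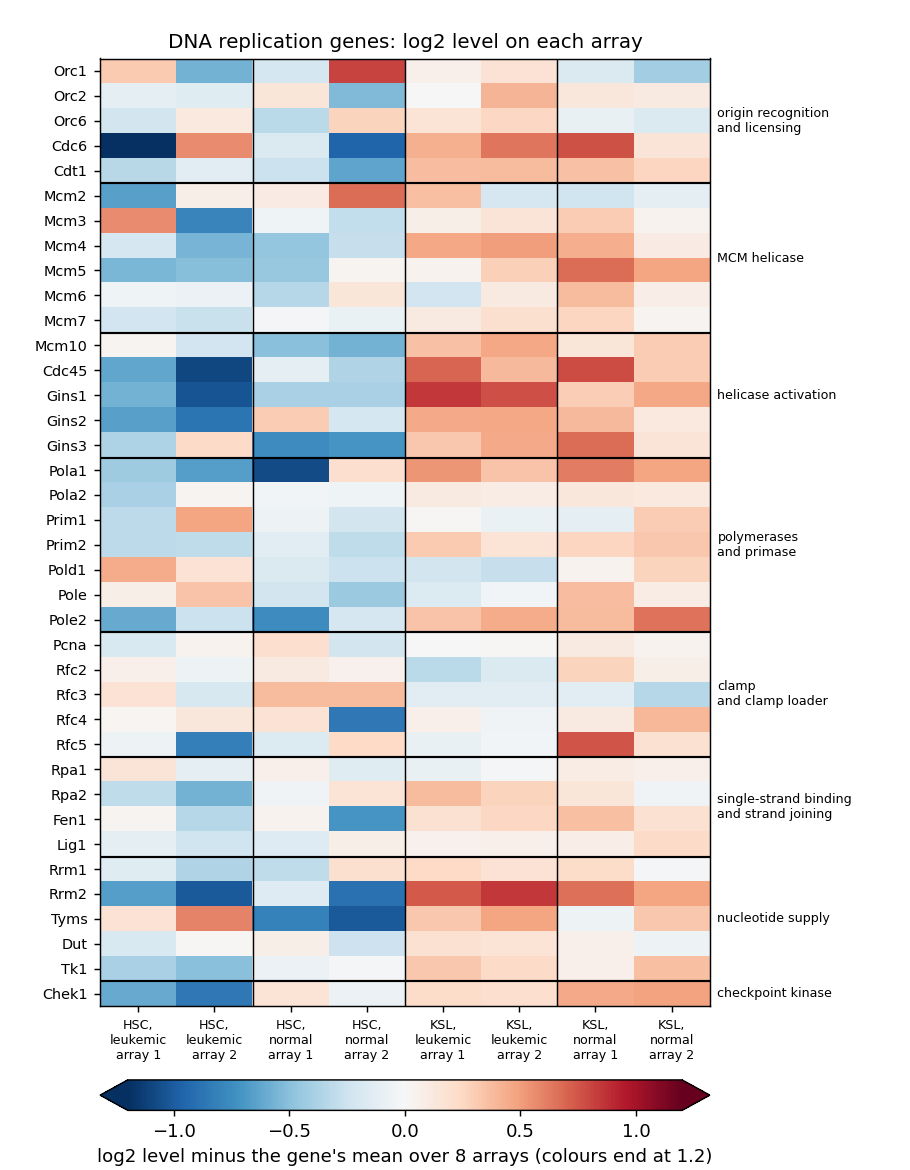
Log2 level of each of the 38 DNA replication genes (rows, by role) on each of the 8 arrays (columns, by group), as the difference from the gene's mean over the arrays. Blue, below the mean, prevails on the 4 HSC arrays at the left, and red on the 4 KSL arrays at the right. By the average difference over both kinds of mice, the contrast is widest for Rrm2, Gins1 and Cdc45.

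In leukemic mice, 6 of the 38 members fell in HSC relative to KSL and 0 rose (limma, Benjamini-Hochberg adjusted p under 0.05 over all 18193 genes). Over all genes 2.74% passed as lower and 3.13% as higher. The median difference of the members was -0.38, against 0.01 for all genes. Fitted differences were below 0 for 31 members and above 0 for 7. Both HSC arrays lay below both KSL arrays for 23 members, against 23.2% of genes, and above them for 3 (Pold1, Pole and Rfc2), against 28.2%. These calls rest on few arrays: leaving out either KSL array of leukemic mice left 0 calls, either KSL array of normal mice 1, replicate 1 of leukemic HSC 2 and replicate 2 of leukemic HSC 3. Fitting the 4 arrays of leukemic mice alone also gave 0 calls. The shares of all genes passing under these settings are not given here, so the losses are not a result about the replication genes.

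In normal mice, 0 of the 38 members passed in the same limma test, where 1.80% of all genes passed in either direction. The median difference was nonetheless close to that in leukemic mice, at -0.36, with fitted differences below 0 for 33 members and above 0 for 5. At an unadjusted p under 0.05, 14 members were lower and 1 was higher, against 7.36% of all genes lower. Both HSC arrays lay below both KSL arrays for 22 members, against 19.3% of genes, and above them for 2 (Mcm2 and Rfc3), against 24.2%. Leaving out either HSC array of leukemic mice gave 2 calls, Mcm10 and Gins1, and leaving out replicate 2 of normal HSC gave 1.

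Averaged over both kinds of mice, a comparison added after the data had been seen, 11 of the 38 members fell in HSC and 0 rose. Over all genes 4.63% passed as lower and 5.05% as higher. The 11 were Gins1, Prim2, Chek1, Mcm10, Rrm2, Cdt1, Tk1, Mcm4, Cdc45, Mcm5 and Pole2, and the median over all 38 was -0.35. Of these 11, Cdt1 and Chek1 in leukemic mice and Chek1, Cdc45, Mcm5 and Pole2 in normal mice had at least 1 probe set pointing the other way. Leaving out replicate 1 of leukemic KSL or replicate 2 of normal KSL left 0 calls, replicate 2 of leukemic KSL 1, and replicate 1 of normal KSL 2.

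**Figure D2:**
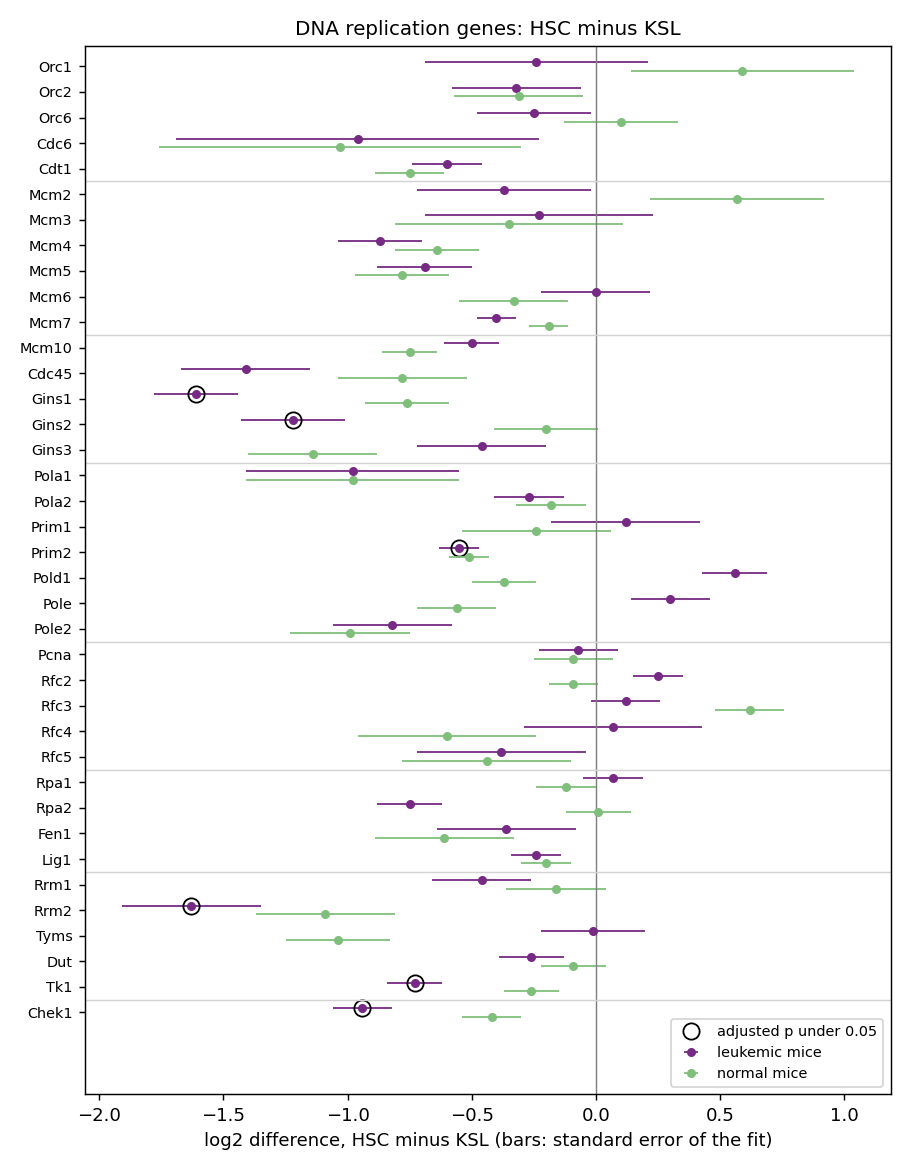
Fitted log2 difference, HSC minus KSL, of each replication gene in leukemic mice (purple) and in normal mice (green), with bars of 1 standard error (n = 2 arrays per group). Most points lie left of 0 in both kinds of mice, and the 6 circled ones, Gins1, Gins2, Prim2, Rrm2, Tk1 and Chek1 in leukemic mice, passed the test.

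By the probe sets used, the helicase activation genes had the widest gap between HSC and KSL of the role groups. Their 5 members averaged deviations of -0.44 and -0.60 in leukemic HSC, -0.29 and -0.45 in normal HSC, 0.54 and 0.51 in leukemic KSL and 0.45 and 0.27 in normal KSL. Gins1, a subunit of the GINS complex, had levels of 8.50 and 8.03 in leukemic HSC, against 9.91 and 9.84 in leukemic KSL. In normal mice its levels were 8.68 and 8.68 in HSC, against 9.36 and 9.53 in KSL. The HSC arrays thus lay below the KSL arrays in both, and Gins1 was 3.06-fold lower in HSC of leukemic mice (log2 difference -1.61 ± 0.17 SE, limma adjusted p = 0.0183). In normal mice the difference was -0.76 ± 0.17 (adjusted p = 0.124). Its less intense probe set pointed the same way, at -0.75 in leukemic and -0.71 in normal mice.

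Gins2, another GINS subunit, had levels of 9.07 and 8.85 in leukemic HSC, against 10.18 and 10.19 in leukemic KSL. In normal mice it had 10.03 and 9.51 in HSC, against 10.11 and 9.84 in KSL, where the groups overlapped. It was 2.33-fold lower in HSC of leukemic mice (-1.22 ± 0.21, limma adjusted p = 0.0472), and its difference in normal mice was -0.20 ± 0.21. Gins3, also of that complex, had 6.07 and 6.67 in leukemic HSC, 5.69 and 5.74 in normal HSC, 6.77 and 6.90 in leukemic KSL and 7.11 and 6.60 in normal KSL. Its difference was the larger one in normal mice, at -1.14 ± 0.26 (adjusted p = 0.137), against -0.46 ± 0.26 in leukemic mice, neither past the threshold. Cdc45, the helicase cofactor, had 7.02 and 6.55 in leukemic HSC, against 8.34 and 8.03 in leukemic KSL, a difference of -1.41 ± 0.26 that just missed the threshold (adjusted p = 0.0541). Mcm10, which helps to activate the loaded helicase, had 8.25 and 8.18 in normal HSC, against 8.89 and 9.05 in normal KSL. That difference of -0.75 ± 0.11 had the smallest p among the members in normal mice (adjusted p = 0.0614). The other 2 probe sets of Mcm10 gave -0.07 and -0.49 in normal mice, and -1.13 and -1.22 in leukemic mice. The other probe set of Cdc45 gave -0.28 in leukemic and 0.19 in normal mice. That of Gins3 gave 0.54 and -1.01, and that of Gins2 -0.85 and -0.36, in the same order.

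Among the licensing factors, Cdt1 lay lower in HSC without overlap in both kinds of mice, and Orc2 and Orc6 did so in leukemic mice. Cdt1, which brings the MCM ring to origins, had 10.45 and 10.66 in leukemic HSC, against 11.15 and 11.16 in leukemic KSL. In normal mice it had 10.52 and 10.15 in HSC, against 11.13 and 11.04 in KSL. Its differences of -0.60 ± 0.14 and -0.75 ± 0.14 missed the threshold in each kind of mice (adjusted p = 0.0971 and 0.0992), and their average of -0.68 ± 0.10 passed (adjusted p = 0.0272). The other 2 probe sets of Cdt1 gave -0.58 and -0.18 in normal mice, and in leukemic mice they disagreed, with the second at 0.38. Cdc6, which loads MCM together with Cdt1, ran from 6.64 to 8.62 on the replicates of leukemic HSC alone, the widest replicate spread of any member (SD 1.40). Its differences of -0.96 ± 0.73 and -1.03 ± 0.73 were therefore as uncertain as they were large. The origin recognition genes Orc1, Orc2 and Orc6 had differences between -0.32 and -0.24 in leukemic mice and between -0.31 and 0.59 in normal mice, with adjusted p of at least 0.536. The other probe sets of Orc2 gave -0.10 and -1.07 in leukemic mice and -0.07 and -0.14 in normal mice. That of Orc1 gave -0.78 in leukemic and 0.41 in normal mice.

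The fitted difference between HSC and KSL varied among the MCM subunits and among their probe sets. Mcm4 had 9.50 and 9.14 in leukemic HSC, against 10.16 and 10.20 in leukemic KSL, and 9.23 and 9.42 in normal HSC, against 10.13 and 9.80 in normal KSL. Mcm5 had 9.91 and 9.95 in leukemic HSC, against 10.50 and 10.74 in leukemic KSL, and 10.00 and 10.49 in normal HSC, against 11.13 and 10.93 in normal KSL. Both were lower in HSC without overlap in either kind of mice, and both passed on average, Mcm4 at -0.75 ± 0.12 (adjusted p = 0.0326) and Mcm5 at -0.74 ± 0.14 (adjusted p = 0.0419). The other 2 probe sets of Mcm5 gave -1.29 and -1.11 in leukemic mice, and 0.04 and 0.02 in normal mice. Mcm7 was also without overlap but closer, at -0.40 ± 0.08 in leukemic and -0.19 ± 0.08 in normal mice. Mcm6 differed by -0.00 ± 0.22 and -0.33 ± 0.22, with its other 2 probe sets at -0.40 and 0.15 in leukemic and -0.52 and 0.30 in normal mice. Mcm3, with 11.42 and 10.06 on the replicates of leukemic HSC, differed by -0.23 ± 0.46 and -0.35 ± 0.46. Mcm2 was above KSL without overlap in normal mice, with 10.47 and 11.04 in HSC, against 10.13 and 10.25 in KSL. Its difference there was 0.57 ± 0.35 (adjusted p = 0.536), and its other probe set gave -0.33, so that direction rests on 1 of 2 probe sets.

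Among polymerases and primase, Prim2 was the only member to pass within 1 kind of mice. Prim2, the large primase subunit, had 7.96 and 7.97 in leukemic HSC, against 8.59 and 8.44 in leukemic KSL. In normal mice it had 8.15 and 7.97 in HSC, against 8.54 and 8.60 in KSL. It was 1.47-fold lower in HSC of leukemic mice (-0.55 ± 0.08, limma adjusted p = 0.0366), and the difference in normal mice, -0.51 ± 0.08, did not pass (adjusted p = 0.0696). The call was also the least stable of the 6, being lost under 16 of 20 alternative settings, all with the same direction. Its partner Prim1 had differences of 0.12 ± 0.30 and -0.24 ± 0.30. Pole2, the second subunit of polymerase epsilon, had 7.56 and 7.91 in leukemic HSC, against 8.51 and 8.61 in leukemic KSL, and 7.41 and 7.96 in normal HSC, against 8.54 and 8.82 in normal KSL. On average over both kinds of mice it was lower in HSC, at -0.91 ± 0.17 (adjusted p = 0.0423), while its other probe set gave -0.43 in leukemic and 0.30 in normal mice. Pola1, the catalytic subunit of polymerase alpha, differed by -0.98 ± 0.43 in both kinds of mice, and Pola2, its accessory subunit, by -0.27 ± 0.14 and -0.18 ± 0.14. These differences were without overlap and did not pass.

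The catalytic subunits of the 2 elongating polymerases stood apart from that pattern in leukemic mice. Pold1, of polymerase delta, had 10.85 and 10.58 in leukemic HSC, against 10.19 and 10.13 in leukemic KSL, and 10.24 and 10.15 in normal HSC, against 10.45 and 10.68 in normal KSL. Pole, of polymerase epsilon, had 9.07 and 9.35 in leukemic HSC, against 8.84 and 8.97 in leukemic KSL, and 8.78 and 8.56 in normal HSC, against 9.37 and 9.09 in normal KSL. Both lay above KSL in leukemic mice and below it in normal mice without overlap, and neither difference passed. The other probe set of Pold1 gave -0.04 in leukemic mice and -0.32 in normal mice, so that the higher level in leukemic HSC was seen with 1 of its 2 probe sets. Pole has a single probe set.

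Of the clamp and its loader, 0 of 5 members passed between the populations. Pcna, the sliding clamp, had differences of -0.07 ± 0.16 in leukemic and -0.09 ± 0.16 in normal mice. The loader subunits Rfc2 to Rfc5 had differences between -0.38 and 0.25 in leukemic mice and between -0.60 and 0.62 in normal mice, with 0 of 4 passing. The highest was that of Rfc3 in normal mice, with 8.84 and 8.84 in HSC, against 8.32 and 8.12 in KSL (0.62 ± 0.14, adjusted p = 0.127), where its other probe set gave -0.20. The lowest was that of Rfc4 in normal mice (-0.60 ± 0.36), whose other probe set gave -1.07 in leukemic and -0.85 in normal mice. Mean deviations of the 5 genes were 0.00 and -0.18 in leukemic HSC, 0.14 and -0.09 in normal HSC, -0.09 and -0.07 in leukemic KSL and 0.22 and 0.07 in normal KSL, so the groups overlapped.

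Among the genes of single-strand binding and strand joining, Rpa2, a subunit of the protein that coats single-stranded DNA, had 9.33 and 9.07 in leukemic HSC, against 10.01 and 9.90 in leukemic KSL (-0.75 ± 0.13, adjusted p = 0.0518). In normal mice it had 9.59 and 9.80 in HSC, against 9.78 and 9.59 in KSL, a difference of 0.01 ± 0.13. Rpa1, the large subunit of the same protein, differed by 0.07 ± 0.12 and -0.12 ± 0.12. Fen1, the flap endonuclease, and Lig1, the ligase that joins lagging-strand fragments, were without overlap in both kinds of mice. Their differences were -0.36 ± 0.28 and -0.61 ± 0.28 for Fen1 and -0.24 ± 0.10 and -0.20 ± 0.10 for Lig1, none of which passed.

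In nucleotide supply, the largest difference of any member in leukemic mice was that of Rrm2, the S-phase subunit of ribonucleotide reductase. Rrm2 had 9.57 and 9.23 in leukemic HSC, against 10.97 and 11.08 in leukemic KSL. In normal mice it had 10.08 and 9.34 in HSC, against 10.89 and 10.71 in KSL. It was 3.09-fold lower in HSC of leukemic mice (-1.63 ± 0.28, limma adjusted p = 0.0478), and its difference in normal mice was -1.09 ± 0.28 (adjusted p = 0.164). All 3 of its probe sets were lower in HSC, by -1.63, -1.74 and -1.65 in leukemic mice. Rrm1, the subunit whose level varies less over the cell cycle, differed by -0.46 ± 0.20 and -0.16 ± 0.20. Tk1, thymidine kinase, had 8.77 and 8.65 in leukemic HSC, against 9.48 and 9.39 in leukemic KSL, and was 1.66-fold lower (-0.73 ± 0.11, limma adjusted p = 0.0396). In normal mice Tk1 had 9.09 and 9.13 in HSC, against 9.22 and 9.52 in KSL (-0.26 ± 0.11). Dut, which removes dUTP, differed by -0.26 ± 0.13 and -0.09 ± 0.13.

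Chek1, the kinase that restrains origin firing when forks stall, had 7.61 and 7.36 in leukemic HSC, against 8.44 and 8.42 in leukemic KSL. In normal mice Chek1 had 8.38 and 8.14 in HSC, against 8.67 and 8.70 in KSL. The leukemic HSC arrays were the lowest of all, and Chek1 was 1.92-fold lower in HSC of leukemic mice (-0.94 ± 0.12, limma adjusted p = 0.0265), with -0.42 ± 0.12 in normal mice (adjusted p = 0.190). Its 5 probe sets did not all point the same way in leukemic mice: the other 4 had differences of 0.18, -0.39, -1.33 and 0.20. Over all members, 21 of the 31 with several probe sets had all of them on 1 side in leukemic mice and 20 of 31 in normal mice. Those with probe sets on both sides were Cdt1, Chek1, Dut, Gins3, Mcm6, Pold1, Prim1, Rfc2, Rfc4 and Rpa1 in leukemic mice. In normal mice they were Cdc45, Chek1, Mcm2, Mcm5, Mcm6, Pola1, Pola2, Pole2, Rfc3, Rrm1 and Tyms. Of the 89 probe sets of the members, 73 were lower in HSC of leukemic mice and 10 of these passed when all 34945 probe sets with 1 symbol were tested, against 2.23% of them passing as lower.

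**Figure D3:**
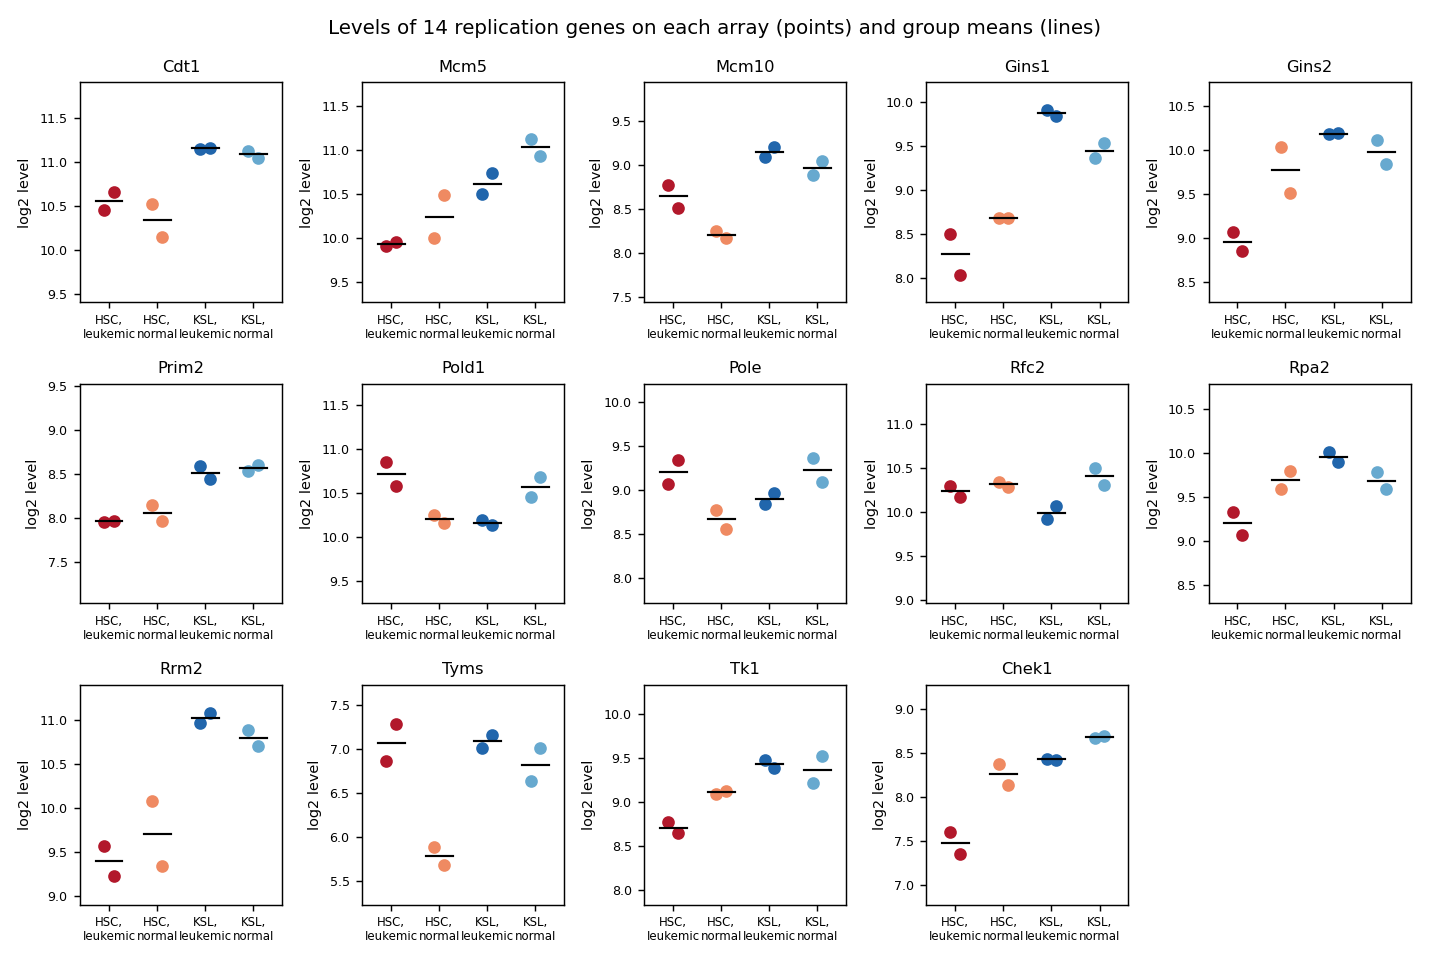
Log2 levels of the 14 replication genes with the smallest p-values in the comparisons, as points for the 2 arrays and a line for the mean of each group, on axes that all span 2.5 log2 units. Gins1, Prim2, Rrm2, Cdt1 and Mcm5 are lower in both HSC groups than in both KSL groups, Chek1 and Tk1 are lowest in leukemic HSC, and Tyms is lowest in normal HSC.

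Between leukemic and normal mice, no replication gene passed the test in HSC, and the members' median lay near 0. In HSC, 0 of 38 passed (limma), against 0.0989% of all genes, and 9 had an unadjusted p under 0.05, against 13.8% of all genes. The median difference, leukemic minus normal, was -0.06, with 16 members above 0 and 22 below. Both leukemic HSC arrays lay above both normal ones for 5 members, against 16% of genes, and below them for 11, against 16.7%. Differences ran between -0.81 for Gins2 and 1.29 for Tyms.

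Tyms, thymidylate synthase, had the widest leukemic difference in HSC. Its levels were 6.86 and 7.28 in leukemic HSC, against 5.88 and 5.68 in normal HSC (1.29 ± 0.21, adjusted p = 0.141). In KSL they were 7.01 and 7.16 in leukemic mice, against 6.63 and 7.01 in normal mice, so that normal HSC stood lowest. The 4 probe sets of Tyms disagreed in HSC, with the other 3 at -0.70, -0.71 and 1.44, and the value thus belongs to the probe set used. Chek1 had the smallest p, lower in leukemic than in normal HSC by -0.78 ± 0.12 (adjusted p = 0.134), and Gins2 was lower by -0.81 ± 0.21 (adjusted p = 0.229). Mcm10 had 8.78 and 8.52 in leukemic HSC, against 8.25 and 8.18 in normal HSC (0.44 ± 0.11, adjusted p = 0.226). That direction was not shared by its other 2 probe sets, at -0.87 and -0.46. Pold1 was higher in leukemic HSC by 0.52 ± 0.13 (adjusted p = 0.216), and its other probe set by 0.07. None of these passed.

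In KSL, 0 of 38 members passed (limma), against 0.044% of all genes, and 2 had an unadjusted p under 0.05, against 7.95% of all genes. The median difference was -0.01, with 19 members above 0 and 19 below. Leukemic KSL lay above normal KSL without overlap for 11 members, against 20.5% of genes, and below for 11, against 24.1%. The smallest p was that of Rfc2, a clamp loader subunit, with 9.92 and 10.07 in leukemic KSL, against 10.51 and 10.31 in normal KSL (-0.41 ± 0.10, adjusted p = 0.399). Next came Pold1 at -0.40 ± 0.13 (adjusted p = 0.536), Gins1 at 0.43 ± 0.17 (adjusted p = 0.633), Chek1 at -0.26 ± 0.12 (adjusted p = 0.740) and Mcm5 at -0.41 ± 0.19 (adjusted p = 0.758). Differences ran between -0.53 and 0.43, a narrower range than in HSC. Averaged over both populations, a comparison added after the data had been seen, 0 of 38 passed, against 0.0824% of genes, and the median was -0.04.

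**Figure D4:**
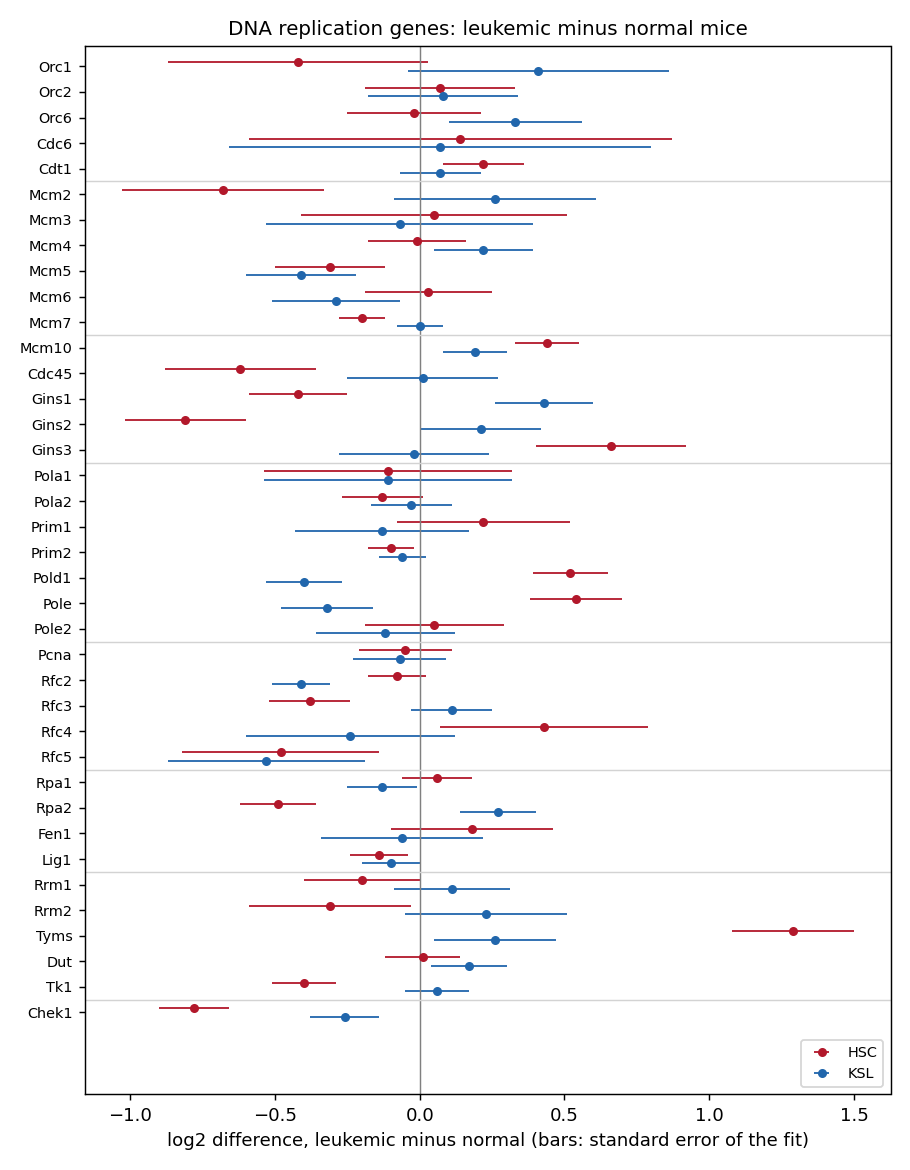
Fitted log2 difference, leukemic minus normal mice, of each replication gene in HSC (red) and KSL (blue), with bars of 1 standard error (n = 2 arrays per group). Points lie on both sides of 0 in both populations and none passed the test, with Tyms in HSC the farthest out at 1.29.

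Whether leukemic marrow acted differently on HSC and KSL was tested as the HSC difference minus the KSL difference. By limma, 0 of 38 members passed, against 0.0055% of all genes, and 8 had an unadjusted p under 0.05, against 9.09% of all genes. The largest values were those of Tyms at 1.03 ± 0.29 (adjusted p = 0.428), Gins2 at -1.02 ± 0.29 (adjusted p = 0.435), Mcm2 at -0.94 ± 0.50 and Pold1 at 0.93 ± 0.18 (adjusted p = 0.313). The 5 with the smallest p were Pold1, Rpa2 at -0.76 ± 0.19 (adjusted p = 0.388), Pole at 0.86 ± 0.22 (adjusted p = 0.390), Gins1 at -0.85 ± 0.23 (adjusted p = 0.422) and Tyms. For 3 members the leukemic arrays lay on the same side of the normal ones without overlap in both populations, Mcm5 and Chek1 below and Mcm10 above, against 10.2% of all genes. The other 2 probe sets of Mcm5 were above 0 in KSL (0.17 and 0.34), and those of Mcm10 below 0 in HSC (-0.87 and -0.46). Of the 5 probe sets of Chek1, 1 was above 0 in HSC. For 6 members, Gins1, Gins2, Pold1, Pole, Rfc3 and Rpa2, the leukemic arrays lay on opposite sides without overlap, against 6.08% of all genes. The other probe sets of Gins1, Gins2 and Rfc3 did not share the opposite directions.

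Signs of RNA quality moved with the leukemic HSC arrays. The Gapdh control probe sets gave a 3′ minus 5′ log2 difference of 1.19 and 1.03 in leukemic HSC, against 0.78 and 0.83 in normal HSC and between 0.73 and 0.89 on the KSL arrays. For the Tfrc control it was -0.36 and -0.75 in leukemic HSC, against -2.04 and -1.74 in normal HSC and between -1.68 and -1.28 on the KSL arrays. For Actb it lay between -0.53 and -0.37 on all arrays. The part of RNA quality in the differences of leukemic HSC was not tested. All 12 granulocyte-monocyte progenitor markers likewise had fitted differences above 0 between leukemic and normal HSC, with a median of 1.83 and 0 of 12 passing.

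Among other genes of replication, 17 of 21 factors of origin firing and forks had a fitted difference below 0 between HSC and KSL of leukemic mice, of which 4 passed. Of 50 further measured replication factors, 5 fell and 1 rose in leukemic HSC relative to KSL (median -0.27), and 0 passed in normal mice (median -0.33), beside the 2.74% lower and 3.13% higher of all genes in leukemic mice. Those that fell with the smallest p were Tipin, a fork protection factor (-0.95 ± 0.11, limma adjusted p = 0.0231), Pole3, a small subunit of polymerase epsilon (-0.76 ± 0.09, adjusted p = 0.0244), Recql4, a helicase of origin firing (-0.78 ± 0.11, adjusted p = 0.0329), and Atad5, which unloads PCNA (-1.07 ± 0.16, adjusted p = 0.0374). The 21 origin firing and fork factors among them had medians of -0.52 in leukemic and -0.63 in normal mice, while the 10 genes of nucleotide metabolism had 0.13 and -0.11. The 11 other subunits of the same complexes had medians of -0.15 in leukemic and -0.03 in normal mice, with 5 above 0 and 6 below in each, and 1 passed in each direction in leukemic mice. The difference between these groups of genes was not tested. Between leukemic and normal mice, 0 of the 50 passed in HSC (median 0.13) and 0 in KSL (median 0.09).

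Mitosis genes were lower in HSC too. Of 19 measured, 4 fell and 0 rose in HSC of leukemic mice (median -0.48), and 4 fell and 0 rose in HSC of normal mice (median -0.75). Over all genes 2.74% passed as lower in leukemic mice, and 1.80% passed in either direction in normal mice. Top2a, the topoisomerase that untangles sister chromatids, had 9.08 and 9.20 in leukemic HSC, against 10.07 and 10.08 in leukemic KSL (-0.93 ± 0.05, limma adjusted p = 0.00797), and -0.97 ± 0.05 in normal mice (adjusted p = 0.0120). The spindle motor gene Kif11 passed between leukemic and normal HSC, which no replication gene did, with 9.73 and 9.81 against 8.67 and 8.75 (1.06 ± 0.07, adjusted p = 0.0458). It was the only one of the 19 to do so, against 0.0989% of all genes, and the difference between the 2 gene sets was not tested.

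Among 17 regulators (E2F and RB families, S-phase cyclins and Myc genes), 0 fell and 1 rose in HSC in each kind of mice. Over all genes 3.13% passed as higher and 2.74% as lower in leukemic mice, and 1.80% in either direction in normal mice. A count of 1 among so few genes is therefore not a result about the regulators as a set. That gene was Mycn, a Myc family factor, with 9.85 and 9.99 in leukemic HSC, against 7.30 and 7.36 in leukemic KSL (2.59 ± 0.10, limma adjusted p = 0.00525). In normal mice the difference was 2.10 ± 0.10 (adjusted p = 0.00952). Of 14 quiescence genes and CDK inhibitors, 2 rose in HSC of leukemic mice and 1 in HSC of normal mice, with none lower past the threshold. Their fitted differences were above 0 for 10 and below 0 for 4 in leukemic mice (median 0.53). In normal mice 7 were above 0 and 7 below (median 0.04, lowest -2.68). In the average over both kinds of mice, 4 rose and 1 fell past the threshold, beside 5.05% higher and 4.63% lower over all genes. Differences in that average ran between -2.54 and 2.83, and the lowest in leukemic mice was -2.40. The list thus went in both directions, and the genes named next are those that passed as higher within 1 kind of mice. Txnip, a growth-restraining thioredoxin-binding protein, rose by 1.86 ± 0.15 in leukemic mice (adjusted p = 0.0120) and by 1.19 ± 0.15 in normal mice (adjusted p = 0.0435). Egr1, an early response factor linked to HSC quiescence, rose by 2.33 ± 0.28 in leukemic mice (adjusted p = 0.0242).

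**Figure D5:**
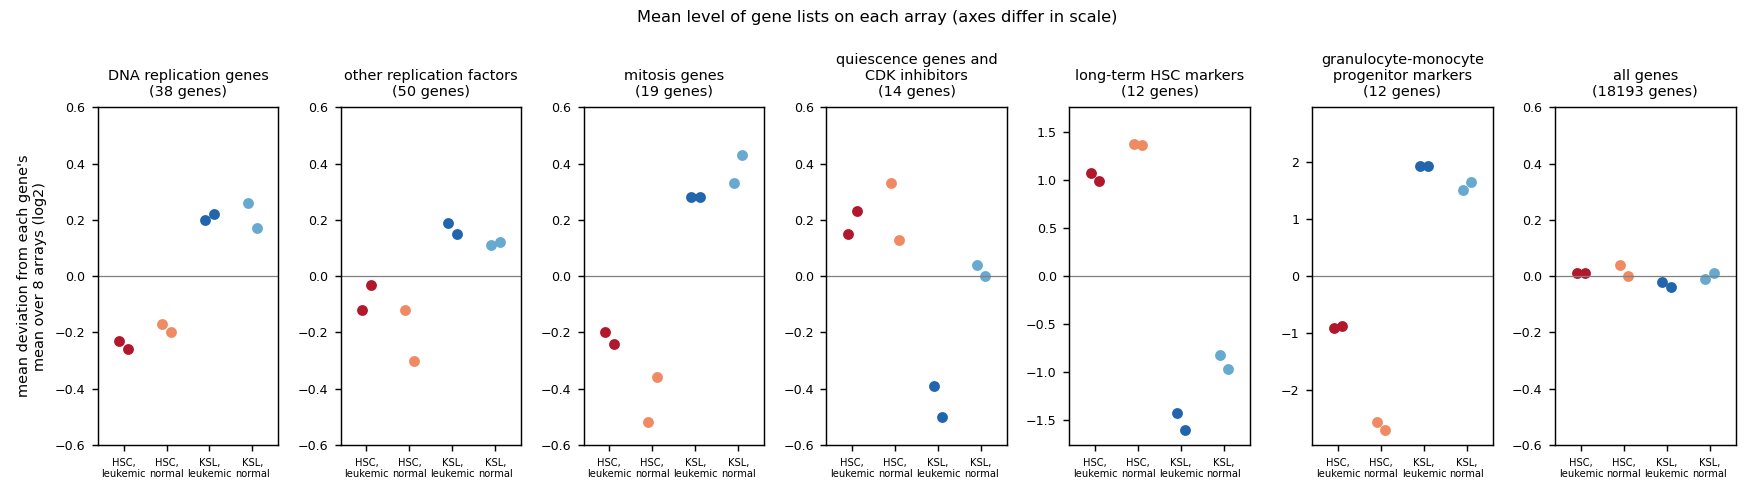
Mean deviation of each gene list on each array, in log2 units, with the 2 arrays of each group as points and the number of genes in each title. The replication and mitosis lists lie below 0 on the 4 HSC arrays and above 0 on the 4 KSL arrays, the long-term HSC markers the other way round, and all genes lie near 0.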

How the data were processed

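Gene expression was measured on 8 Affymetrix mouse arrays, 2 in each of 4 groups, grouped by the disease state, cell type and title labels. The authors deposited log2 values of 45101 probe sets, made with RMA per the submitters' processing notes, which give no version. At least 14.9% and at most 15.8% of an array's probe sets lay at a floor of 3.32. The series' design text names a Nugen whole-transcriptome kit whereas the labels' protocol describes conventional Affymetrix cRNA, and which was used is unknown here. Descriptions of the samples as embryos were disregarded, and the leukemic KSL titles contain the wording of both groups. The number of arrays limits the precision.

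Gene names came from the platform annotation: 34945 had 1 symbol, 932 several and 9160 none, 64 were controls, and 34741 matched the RefSeq table of GRCm38.p6, with 0 symbols updated. Each gene was represented by its brightest probe set on average. Of the 38 members, 6 were represented by a probe set with the suffix x and 4 by one with the suffix s, which can also detect related sequences (x: Mcm5, Mcm6, Pold1, Rfc2, Fen1 and Rrm2; s: Mcm3, Mcm7, Rfc4 and Chek1). Log2 values of 18193 genes entered limma 3.58.1 (R 4.3.3), with lmFit and eBayes on all 8 arrays, a mean for each group (4 residual and 0.67 prior degrees of freedom), two-sided, with Benjamini-Hochberg adjustment over all genes and a threshold of 0.05. Errors are standard errors of that fit. The fit was tested on simulated normal noise, with the spread of each gene raised to at least the median spread. That test therefore does not vouch for calls on genes of smaller spread. Summaries used Python 3.11.15 with numpy 2.4.6 and pandas 2.3.3, and figures matplotlib 3.10.9.

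There were 5 planned comparisons and 2 averages added after seeing the data. The members and the other lists were chosen with earlier results of these data known. For the planned comparisons, array values of the groups compared are given for every member that passed, or for the 5 with the smallest p where none did. Members that passed only in an added average are not all given on every array. Members named beyond these were chosen after their values were seen. Other lists are given by counts, with up to 4 passing genes, or the 2 with the smallest p. In all, 20 alternatives were run (19 for the difference of effects and the averages), 8 of which leave out 1 array. Same-numbered arrays hardly deviated together (correlations between -0.035 and 0.087), so replicate numbers were not taken to pair samples. The highest correlation was that of normal HSC with normal KSL, whose same-numbered arrays also shared a sex pattern. The labels do not say whether those came from the same animals, and the main fit has no term for pairing.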

Additional observations from a re-analysis of the deposited data

Results flagged for a closer look

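For 6 replication genes, by the probe set used, both leukemic arrays lay on one side of both normal arrays in HSC and on the other in KSL. The difference of the leukemic effects, HSC minus KSL, was tested for each in the fit over all genes, and none passed the adjusted threshold. Gins1 had a difference of -0.85 (-0.42 in HSC and 0.43 in KSL, limma adjusted p = 0.422), and Gins2 one of -1.02 (-0.81 in HSC and 0.21 in KSL, adjusted p = 0.435). Pold1 had 0.93 (0.52 in HSC and -0.40 in KSL, adjusted p = 0.313), with the other Pold1 probe set at 0.07 in HSC and -0.21 in KSL. Pole had 0.86 (0.54 in HSC and -0.32 in KSL, adjusted p = 0.390), Rfc3 had -0.50 (-0.38 in HSC and 0.11 in KSL, adjusted p = 0.557), and Rpa2 had -0.76 (-0.49 in HSC and 0.27 in KSL, adjusted p = 0.388). The other probe sets of Gins1, Gins2 and Rfc3 did not share the opposite directions. They gave 0.13 in HSC and 0.17 in KSL for Gins1, -0.55 and -0.07 for Gins2, and 0.65 and 0.23 for Rfc3. That of Rpa2 gave -0.11 in HSC and 0.48 in KSL, and Pole has a single probe set.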

How the results depend on the processing

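Each result was recomputed under 20 alternatives, except that the difference of the effects and both averages had 19, since a fit of only the 4 arrays compared cannot give them. With 2 arrays a group, the median of HSC against KSL in leukemic mice stayed below 0 under all of them, but the count of passing members (6) moved. It was 3 with array weights, 3 with a term for the arrays with a male pattern, 2 with the replicate number as a block, 0 with only the 4 arrays compared and 0 without the arrays with a male pattern, and from 0 to 6 when leaving out 1 array. Its median of -0.38 was -0.51 with the mean of all probe sets and -0.72 with the most variable probe set, and from -0.45 to -0.36 when leaving out 1 array. In normal mice 1 member passed with cyclic loess and 1 with the mean of all probe sets, and from 0 to 2 when leaving out 1 array. The median there was -0.30 with the mean of all probe sets and from -0.44 to -0.31 when leaving out 1 array. For the average of both kinds of mice the count of 11 was 5 with the most variable probe set, 0 without the arrays with a male pattern, and from 0 to 9 when leaving out 1 array, and the replicate block gave 8. Its median was -0.42 with the mean of all probe sets, -0.55 with the most variable one, and from -0.43 to -0.31 when leaving out 1 array. The replicate block left the other counts of members at 0. Shares of all genes passing under each alternative are not given, so a change in a count is not a result particular to the members.

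Medians of leukemic against normal stayed near 0. In HSC the median was -0.02 with arrays shifted to a common median, -0.12 with the mean of all probe sets, -0.18 with the most variable one, -0.11 without the arrays with a male pattern, and from -0.11 to -0.06 when leaving out 1 array. In KSL it was 0.06, 0.07, 0.16 and 0.07 under the same settings, 0.07 with a term for the male pattern, and from -0.03 to 0.07 when leaving out 1 array. For the difference of the effects it was -0.12 with the mean of all probe sets, -0.39 with the most variable one, -0.07 without the arrays with a male pattern, and from -0.09 to 0.02 when leaving out 1 array. For the average of both populations it was 0.02 with a common median and from -0.09 to -0.01 when leaving out 1 array, and 1 member passed with the mean of all probe sets. Signs turned for Mcm10 in HSC (-0.29 with the mean of all probe sets, -0.87 with the most variable one), Mcm5 in KSL (0.03 and 0.17) and the difference of Tyms (-0.04 with the mean). The cause of these shifts was not tested. By construction the probe set used is the brightest of a gene, so the other probe set rules bring in probe sets of lower mean signal.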
